A study of Mus musculus with 4 samples.

Results

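Heavy chains of V family 1 are antibody heavy chains whose variable segment is one of the Ighv1 genes, the largest V family of the mouse heavy-chain locus. Members were all assembled heavy-chain contigs whose V gene name starts with IGHV1- in the Mll3/4 deleted Kit+ library and the control B220lo library. There were 111 in the deleted library and 5458 in the B220lo library, 5569 in all, out of 13262 heavy-chain contigs in the whole series. The control Kit+ and Mll3/4SI Kit+ libraries held 23 and 13 such contigs and were used only for levels.

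All libraries were CD45.2+ bone marrow cells taken 10 weeks after transplantation and prepared with the 10x Genomics 5′ version 2 kit, with 1 library per group and no replicates. The control Kit+, Mll3/4 deleted Kit+ and Mll3/4SI Kit+ libraries were sorted for Kit, a receptor of stem and progenitor cells, and the control B220lo library for low B220, a B-lineage surface antigen. Kmt2c and Kmt2d encode the histone methyltransferases MLL3 and MLL4. The labels do not expand SI, do not name the deleter or promoter behind the deletion, and do not say how many mice entered a library. The deleted and B220lo libraries differ in genotype and in the sort at once, and these cannot be told apart. They also differ in Y-linked transcripts: the sum of 4 Y-linked genes was 131 CPM (UMIs of a gene scaled to the cells' total; 109 to 155) in family 1 cells of the deleted library and 0.199 in those of the B220lo library.

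A heavy chain is built in 2 steps in progenitor B cells: a D segment is joined to a J segment, and a V segment is then joined to the DJ unit by the RAG recombinase. The V genes are strung out along the locus, and family 1 occupies its distal part, so that these genes must be brought over a long distance to the DJ unit. Distal V genes are also known to be transcribed from their own promoters before they recombine. The junction of V, D and J encodes CDR3, the most variable loop of the antibody, and serves as a tag of the recombination event. A productive heavy chain is first tested with the surrogate light chain, encoded by Igll1 and Vpreb1, and a kappa or lambda light chain is rearranged later.

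In the GRCm38 annotation the family spans chromosome 12 from 114351705 to 116010093 on the minus strand, with 92 annotated genes, 53 of them listed as V genes and 39 as pseudogenes. These lie 921.9 to 2579.8 kb from Ighj1, the J segment nearest to the V genes (113429781 to 113429833). The nearest V gene of any other family, Ighv5-1, lies 143.1 kb from Ighj1. All 50 family 1 gene names in the contigs matched the annotation. Of the annotated members, 62 share the same 9 germline bases starting at the conserved cysteine codon. They are shown here for Ighv1-26, beside those of Ighv1-2, which end in a stop codon. Capitals mark the codon at the end.
Ighv1-26 germline end: tgtgcaAGA
Ighv1-2 germline end: tgtgcaTGA

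The CDR3 sequences that follow carry the largest groups of cells in the deleted library. Lower case marks the unbroken match to germline V from the first base and to germline J from the last. Capitals mark the bases between, which hold the D segment and added bases, and also any V or J bases that lie past a mismatch. In the IGHV1-11 chain no J match could be assigned, because its CDR3 does not end in TGG, the usual tryptophan codon of J.
IGHV1-2 with IGHJ3, 45 cells: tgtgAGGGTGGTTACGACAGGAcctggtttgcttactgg
IGHV1-11 with IGHJ2, 21 cells: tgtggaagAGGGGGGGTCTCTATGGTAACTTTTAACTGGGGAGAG
IGHV1-47 with IGHJ2, 17 cells: tgtgcaagAGAACTGGGACCCCactgg
IGHV1-18 with IGHJ2, 4 cells: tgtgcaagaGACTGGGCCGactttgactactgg
These 4 chains account for 87 of the 111 family 1 cells of the deleted library. The other 24 distinct chains were each in 1 cell. For this reason the main count throughout is of distinct CDR3 nucleotide sequences, so that a group of cells with the same chain counts as 1 chain.

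Family 1 chains were a small minority in the deleted library and the majority in the B220lo library. They made up 28 of 631 distinct CDR3 in the deleted library, or 4.44% (exact 95% binomial interval 2.97 to 6.35), and 5201 of 9367 in the B220lo library, or 55.5% (54.5 to 56.5). The log2 ratio of these shares was -3.65 (-4.25 to -3.10). Intervals here and below cover counting error only, and with 1 library per group there is no replicate check and no test. By contigs the shares were 3.27% (2.70 to 3.93) and 55.6% (54.7 to 56.6), and by cells 3.27% and 57.5%. The few heavy chains of the other Kit+ libraries stood near the B220lo level: family 1 made up 23 of 34 distinct CDR3 in control Kit+ cells (67.6%, 49.5 to 82.6) and 13 of 25 in Mll3/4SI Kit+ cells (52.0%, 31.3 to 72.2). The cells behind these chains differed from most of the deleted ones. All 23 control Kit+ family 1 cells and 11 of 12 Mll3/4SI family 1 cells had a light chain, and 0 of them had a UMI of Igll1, while 18 of the 23 and 6 of the 12 had one of Ms4a1, which encodes CD20 of later B cells. Of the deleted family 1 cells 103 of 111 had no light chain, and 102 of those had a UMI of Igll1. In the deleted library the largest shares were those of IGHV5, at 46.0% against 9.16% in the B220lo library, and IGHV2, at 33.3% against 5.93%.

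**Figure D1:**
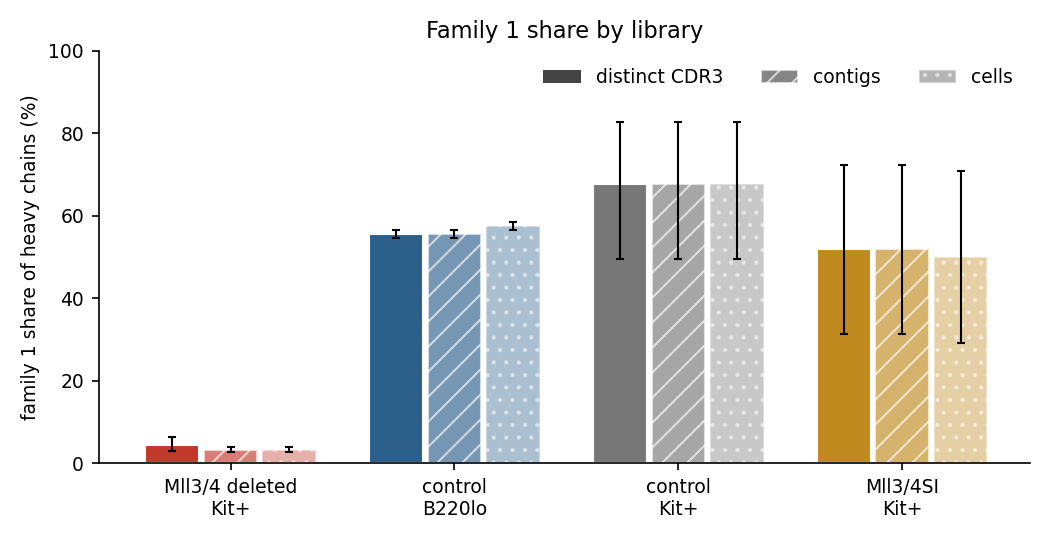
Family 1 share of heavy chains (vertical axis, percent) in each of the 4 libraries, counted by distinct CDR3, by contigs and by cells, with exact 95% binomial intervals as black lines. The deleted library stands at 3.27 to 4.44% by the 3 counts and the B220lo library at 55.5 to 57.5%, and the other Kit+ libraries have wide intervals because they rest on 34 and 25 distinct chains.

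The count was also made by whether the cell had a light chain. Among cells without any light-chain contig, family 1 made up 20 of 617 distinct CDR3 in the deleted library (3.24%, 1.99 to 4.96) and 971 of 1801 in the B220lo library (53.9%, 51.6 to 56.2). Among the 20 distinct heavy chains of deleted cells that did have a light chain, 8 were of family 1 (40%, 19.1 to 64.0). Among B220lo chains with a light chain the share was 55.9% (54.8 to 57.0).

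Most of the family 1 genes compared had a lower share in the deleted library. The B220lo library used 50 family 1 genes, on 5201 distinct chains, and the deleted library 16, on 28. So few chains cannot show more than 28 genes, so these gene counts are not comparable. Of 39 family 1 genes with at least 20 distinct CDR3 over both libraries, 36 were at least 2-fold lower in the deleted library and 0 were at least 2-fold higher, when 0.5 was added to each count. No family 1 gene had more than 3 chains in the deleted library, so all 39 met this minimum through their B220lo counts. With no minimum, 38 of 50 family 1 genes were lower and 2 higher by the same rule. Of 50 genes of other families 13 were then lower and 24 higher. Over all 77 V genes compared, 62.3% were at least 2-fold lower and 19.5% at least 2-fold higher. The median log2 ratio was -3.0 over the family 1 genes, 0.30 over the 38 genes of other families, and -2.11 over all 77. Since 25 of the 39 family 1 genes had 0 chains in the deleted library, the median was also taken with these genes at a floor of 3 chains, and it was then -1.52, with 27 genes at least 2-fold lower (69.2%). At the same floor 49.4% of all 77 genes were at least 2-fold lower, with a median of -0.80, and 11 of the 38 genes of other families.

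The gene used most in the B220lo library was IGHV1-26 (chromosome 12, 114788372 to 114788805), with 445 distinct CDR3, or 8.56% of the family there. It had 1 in the deleted library, a ratio of shares of 0.0334 (0.000843 to 0.187). Next came IGHV1-64 with 307, IGHV1-81 with 293, IGHV1-72 with 243, IGHV1-9 with 223 and IGHV1-19 with 219. They were followed by IGHV1-55 with 207, IGHV1-82 with 195, IGHV1-75 with 194 and IGHV1-5 with 190. These 10 leading genes lie across the whole family, from 1083.5 kb (IGHV1-5) to 2522.7 kb (IGHV1-82) from Ighj1. Use was therefore not held by 1 end of the family in the B220lo library.

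The 5 lowest ratios belonged to genes with 0 chains in the deleted library, each of them among those 10 leading genes. For a gene with 0 chains there, the ratio depends only on its B220lo count. The order of these 5 therefore repeats their B220lo use and does not show which genes differed most. At a floor of 3 chains IGHV1-72 was at least 5.46-fold lower, IGHV1-19 at least 4.92-fold, IGHV1-55 at least 4.65-fold, IGHV1-82 at least 4.38-fold and IGHV1-5 at least 4.27-fold. A count of 0 among 631 distinct chains, read at that floor of 3, allows a share of up to 0.475%, and the exact 95% interval reaches 0.583%. Of the genes seen in the deleted library, IGHV1-64, IGHV1-18 and IGHV1-9 had 3 distinct chains each, and IGHV1-2, IGHV1-69, IGHV1-47, IGHV1-7, IGHV1-11 and IGHV1-81 had 2 each. The other 7 genes seen there had 1 each. With 28 distinct family 1 chains in that library, counts of 1 to 3 are too few to show whether any gene stood out.

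The 5 highest ratios among the compared genes were those of IGHV1-7, IGHV1-47, IGHV1-2, IGHV1-85 and IGHV1-84. The share of IGHV1-7 in the deleted library was 1.19 times that in the B220lo library (0.136 to 4.76), on 2 and 25 chains. The ratios were 0.825 (0.0962 to 3.20) for IGHV1-47 and 0.690 (0.0810 to 2.65) for IGHV1-2. IGHV1-85 had a ratio of 0.243 (0.00606 to 1.41), on 1 and 61 chains. IGHV1-84 had 0 and 21 chains, too few for the floor to bound the ratio below 1. The 4 intervals all include 1.

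Position within the locus was compared next. The median family 1 chain used a gene 1306 kb from Ighj1 in the deleted library and 1778 kb in the B220lo library. Of these chains, 10 of 28 (35.7%, 18.6 to 55.9) in the deleted library and 2795 of 5201 (53.7%, 52.4 to 55.1) in the B220lo library used a gene beyond the middle of the family, at 1751 kb. This split followed the light chain among deleted cells. Of the 20 chains without a light chain 3 lay beyond the middle (15.0%, 3.21 to 37.9), with a median of 1184 kb, and of the 8 with a light chain 7 did (87.5%, 47.3 to 99.7), with a median of 2241 kb. B220lo shares were 54.7% without and 53.5% with a light chain.

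Genes of other families that lie as far out as family 1 also had a smaller share in the deleted library. Chains of other families from genes at least 921.9 kb from Ighj1 made up 23 of 631 distinct CDR3 (3.65%, 2.32 to 5.42) there and 1430 of 9367 (15.3%, 14.5 to 16.0) in the B220lo library. Genes nearer to Ighj1 made up 91.9% and 29.2%. The summed share of the near genes was thus larger, but not that of each gene. Of the 28 near genes compared 14 were at least 2-fold higher in the deleted library and 6 at least 2-fold lower, when 0.5 was added to each count. The 6 were IGHV14-3, IGHV9-1, IGHV9-2, IGHV9-3, IGHV7-3 and IGHV14-4, which lie 630.0 to 746.6 kb from Ighj1. IGHV9-1 and IGHV9-2 had 0 chains in the deleted library and B220lo shares of 0.683% and 0.502%. The floor of 3 chains, 0.475%, does not bound these genes 2-fold lower. IGHV9-3 had 0 distinct chains in the deleted library and 378 in the B220lo library. Of the 10 genes of other families as far out as family 1, 6 were lower and 1 higher, again with 0.5 added. The 6 include IGHV8-5, with 0 and 27 chains, whose B220lo share of 0.288% lies below the floor of 0.475%.

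**Figure D2:**
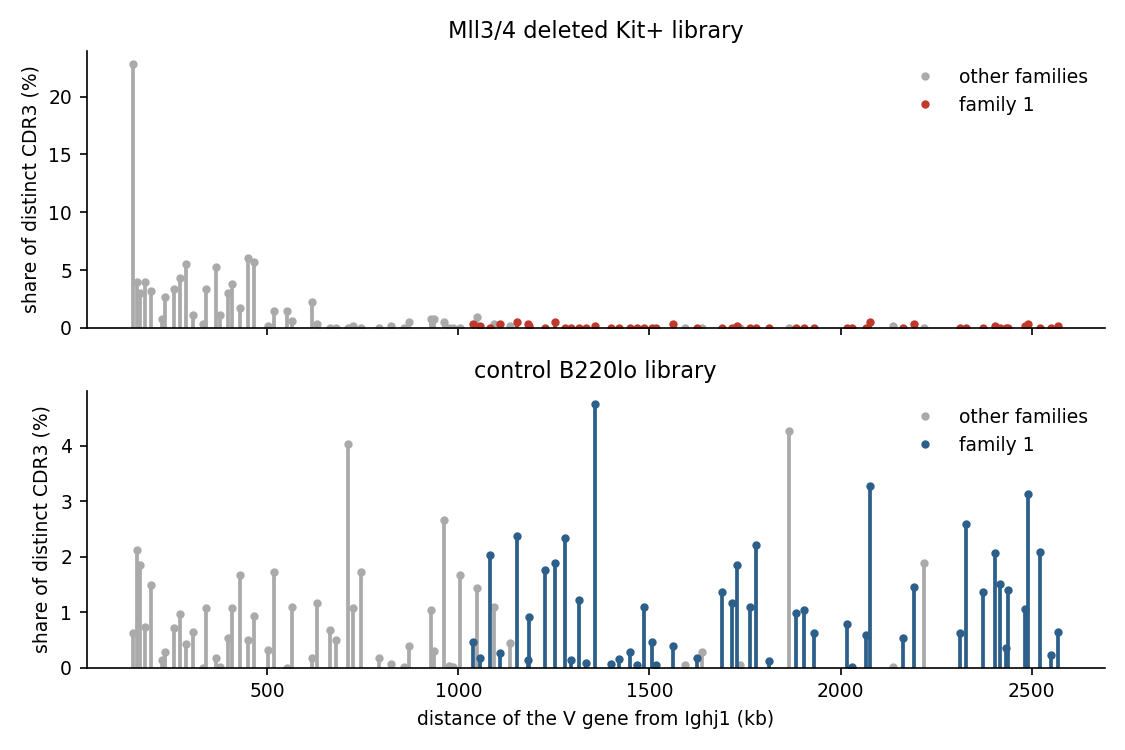
Share of distinct CDR3 (vertical axis, percent, with a different scale in each panel) against the distance of each V gene from Ighj1 (horizontal axis, kb), for family 1 genes (coloured) and genes of other families (grey) seen in either library. In the deleted library the family 1 genes stay at or below 0.475% each, and in the B220lo library they reach 4.75% (IGHV1-26).

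Chains found in several cells are described next. Among deleted cells the IGHV1-2 chain was in 45 cells with a median of 34 UMIs for the contig, the IGHV1-11 chain in 21 cells (median 13) and the IGHV1-47 chain in 17 cells (median 20). None of these cells had another heavy chain or a light chain, and all contigs were joined to IGHM, the constant region of IgM. IGHV1-2 (114469075 to 114469535) is annotated as a pseudogene. The CDR3 of its large chain matched the germline V end over only 4 bases, and that of its other chain over 6, so in both the germline stop codon was not kept. The 43 IGHV1-2 chains of the B220lo library matched over 3 to 8 bases, with a median of 7, and none reached the 9 bases of the full stop codon. All deposited contigs were marked productive, and a CDR3 with a stop codon is not productive. The loss of the stop codon was thus fixed by the input and says nothing further about these junctions.

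Of the B220lo family 1 chains, 5041 of 5201 (96.9%) were in 1 cell and 160 in several, 12 of them in 5 or more. Of the 160, 131 had a V segment identical to germline (81.9%, 75.02 to 87.51), unlike the 5 largest. The largest of those were these, with capitals as above; in the IGHV1-15 chain, whose V segment differs from germline, they may include V and J bases.
IGHV1-15 with IGHJ3, 22 cells: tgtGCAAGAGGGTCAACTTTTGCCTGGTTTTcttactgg
IGHV1-62-2 with IGHJ2, 12 cells: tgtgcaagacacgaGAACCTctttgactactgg
IGHV1-26 with IGHJ3, 11 cells: tgtgcGAAGTACCcctggtttgcttactgg
An IGHV1-53 chain followed in 10 cells and an IGHV1-61 chain in 8. In each of these 5 groups 1 cell held most of the UMIs and the rest few. The IGHV1-15 contig had 1672 UMIs in 1 cell, at most 7 in any other and a median of 2, and the IGHV1-53 contig had 2428, at most 3 and a median of 1. Most contigs were joined to IGHA, the constant region of IgA (20 of 22 for IGHV1-15), and the V segments differed from germline at 4 to 12 bases. Of the cells with these 5 chains, 7 of 22, 5 of 12, 3 of 11, 4 of 10 and 5 of 8 also held another heavy chain. Whether the low counts are RNA from the 1 cell with many UMIs was not tested, so these groups are not read as clones.

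Some family 1 chains of the deleted library ended in the same bases as chains of other families. The ending of the 17-cell IGHV1-47 chain recurred with 5 other V genes, and the entire CDR3 was the same in 41 cells with IGHV7-1. The chains are shown with the shared last 18 bases in capitals, of which only 5 in the IGHV1-47 chain match germline IGHJ2.
IGHV1-47, 17 cells: tgtgcaagaGAACTGGGACCCCACTGG
IGHV7-1, 41 cells: tgtgcaagaGAACTGGGACCCCACTGG
IGHV5-15, 7 cells: tgtgcacagGAACTGGGACCCCACTGG
IGHV2-6, 1 cell: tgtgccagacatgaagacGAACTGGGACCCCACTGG
IGHV2-9, 1 cell: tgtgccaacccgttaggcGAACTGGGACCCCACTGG
IGHV2-9-1, 1 cell: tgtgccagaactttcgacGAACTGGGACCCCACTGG
The other large family 1 chain without a germline IGHJ2 ending, IGHV1-11, shared its last 18 bases with a 1-cell IGHV1-18 chain and with 17 chains of 12 V genes of other families, in 130 cells. Of these the IGHV2-6 chain was in 52 cells.
IGHV1-11, 21 cells: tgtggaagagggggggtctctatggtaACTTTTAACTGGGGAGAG
IGHV1-18, 1 cell: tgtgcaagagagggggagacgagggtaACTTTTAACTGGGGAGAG
IGHV2-6, 52 cells: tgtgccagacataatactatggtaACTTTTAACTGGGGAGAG
In all, 3 of 28 family 1 chains of the deleted library (10.7%, 2.27 to 28.2) shared their last 18 bases with a chain of another family while at least 6 of those bases lay outside the germline J match. The same was true of 276 of 5201 B220lo chains (5.31%, 4.71 to 5.95), against a larger pool of 4166 chains of other families. These intervals overlap. Among B220lo chains of any family, 0 ended like the IGHV1-47 chain and 1 like the IGHV1-11 chain.

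J segments of family 1 chains were compared with those of other families in the same library. Of the deleted family 1 chains 9 of 28 used IGHJ1 (32.1%, 15.9 to 52.4), 9 IGHJ2, 5 IGHJ3 and 5 IGHJ4. Chains of other families there used IGHJ1 in 39 of 603 (6.47%, 4.64 to 8.74) and IGHJ2 in 49.4%. IGHJ1 is the J segment nearest to the D and V genes. Of the 9 IGHJ1 chains, 5 were among the 8 with a light chain and 4 among the 20 without (20%, 5.73 to 43.7), whose interval overlaps that of the other families. Counted by contigs the IGHJ1 share was 8.11% (3.77 to 14.8) in family 1 and 1.71% (1.29 to 2.21) in other families. These intervals treat cells that share a chain as independent, so they are not a second check. Both shares are lower than by distinct chains, and in family 1 all 4 chains found in several cells used IGHJ2 or IGHJ3.

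Family 1 chains of the B220lo library used IGHJ1 in 18.8% (17.7 to 19.8), IGHJ2 in 41.9% (40.5 to 43.2), IGHJ3 in 25.3% and IGHJ4 in 14.1%. Other families there used IGHJ1 more, at 24.4%, and IGHJ2 less, at 34.5%. The order of family 1 and other families for IGHJ1 thus differed between the libraries, with non-overlapping intervals within each when all distinct chains were counted. In the deleted library the intervals overlapped once family 1 chains with a light chain were left out (5.73 to 43.7 against 4.64 to 8.74). The intervals also count chains that share an ending, as shown above, as separate chains. No difference was tested.

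**Figure D3:**
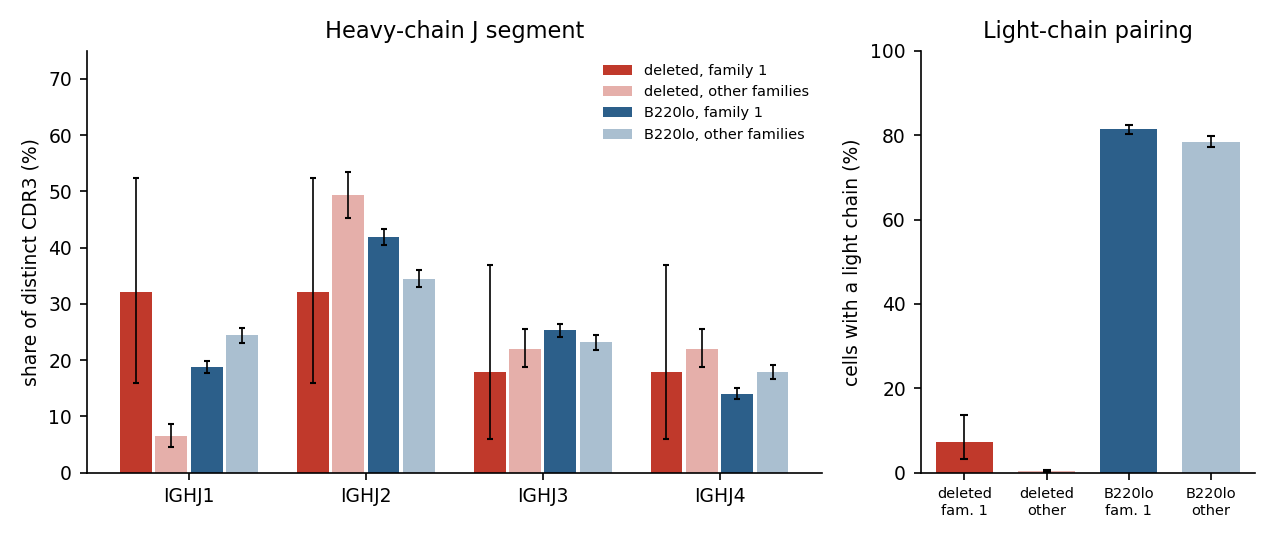
Left, share of distinct CDR3 (percent) with each J segment for family 1 and other families in the deleted and B220lo libraries. Right, share of cells with a light-chain contig (percent). Black lines are exact 95% binomial intervals. IGHJ1 stands at 32.1% in deleted family 1 chains against 6.47% in other families, and light chains at 7.21% against 81.4% of family 1 cells in the deleted and B220lo libraries.

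CDR3 length differed little. Family 1 CDR3 had a median of 12.5 amino acids in the deleted library (quartiles 11.0 and 15.0, range 7 to 21) and of 14.0 in the B220lo library (12.0 and 15.0, range 6 to 26). The 95% interval of the deleted median, 11.0 to 15.0, includes the B220lo value. Other families had medians of 13.0 and 14.0. The stretch between the germline V and J matches, which holds D and added bases, had a median of 16.0 bases in the 25 deleted chains with a J match and 17.0 in the B220lo chains. Of the family 1 CDR3, 20 of 28 in the deleted library (71.4%) and 67.8% in the B220lo library began with the common germline bases tgtgcaaga.

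**Figure D4:**
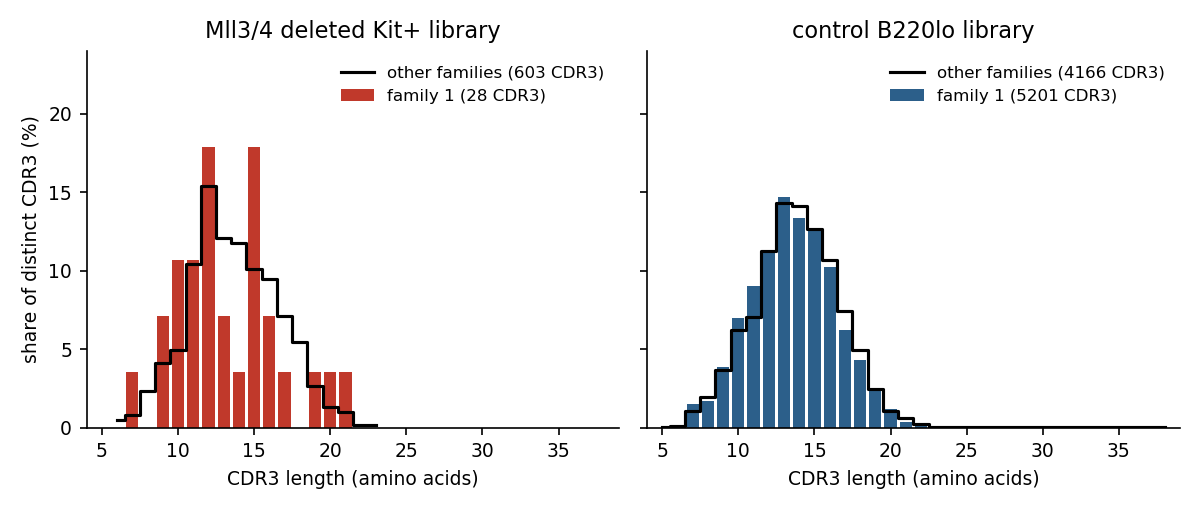
Distribution of CDR3 length (horizontal axis, amino acids) as the share of distinct CDR3 (vertical axis, percent), for family 1 (bars) and other families (line) in each library. The 28 deleted chains scatter from 7 to 21 around a median of 12.5, and the 5201 B220lo chains centre on 14.0.

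Outside CDR3, the V segments of all 28 deleted family 1 chains were identical to the annotated germline (100%, 87.7 to 100). Of the B220lo family 1 chains 97.2% were identical, 98.9% of those with IGHM and 27.6% (19.0 to 37.5) of the 98 with IGHA. Family 1 held 66.6% of IGHA contigs (60.9 to 71.9) and 55.0% of IGHM contigs in the B220lo library. By distinct CDR3 within each constant region the shares were 64.6% (56.6 to 72.0) and 55.0% (54.0 to 56.1). Every family 1 contig of the deleted library was IGHM. A base that differs from germline may be a somatic mutation or an assembly error, and these cannot be told apart here.

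Light-chain pairing of family 1 cells was rare in the deleted library and usual in the B220lo library. Among deleted cells 8 of 111 family 1 cells had a light-chain contig (7.21%, 3.16 to 13.7), against 13 of 3281 cells with chains of other families (0.396%, 0.211 to 0.677). The B220lo shares were 4262 of 5236 (81.4%, 80.3 to 82.4) and 3035 of 3868 (78.5%, 77.1 to 79.8). Counted by distinct chains the deleted share was 28.6%, because the chains found in many cells had no light chain. Lambda was present in 19.4% of B220lo family 1 cells with a light chain (18.2 to 20.6) and in 21.2% of those of other families.

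In the 4262 B220lo family 1 cells with a light chain the most used light-chain V genes were IGLV1, in 585 cells (13.7%), IGKV1-135 in 225, IGLV2 in 205, IGKV2-137 in 170 and IGKV6-23 in 159. IGLV1 was in 449 of the 3035 light-chain cells of other families (14.8%, 13.5 to 16.1), an interval that overlaps that of family 1 (12.7 to 14.8). The 8 deleted cells held 7 kappa pairs and 1 lambda pair, and no light-chain V gene occurred in more than 1 of them. Heavy chains of 3 of them are shown because pairs were so few, with the germline J match in capitals.
IGHV1-53 with IGKV4-59 and IGKV1-88: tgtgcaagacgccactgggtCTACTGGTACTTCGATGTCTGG
IGHV1-75 with IGKV8-28: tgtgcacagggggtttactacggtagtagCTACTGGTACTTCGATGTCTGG
IGHV1-80 with IGKV12-46: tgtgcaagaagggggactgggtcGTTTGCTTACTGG
The other 5 used IGHV1-64 in 3 cells, with IGLV1, IGKV6-14 and IGKV4-68, and IGHV1-81 in 2 cells, with IGKV3-12 and IGKV15-103. The IGLV1 cell was the only family 1 cell of the deleted library with another heavy chain.

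Transcripts of the same cells were then read from the UMI count matrices. Family 1 cells carried B-lineage transcripts in both libraries: Cd79a, a subunit of the B-cell receptor complex, stood at 3793 CPM in the deleted and 2572 in the B220lo library. In family 1 cells of the deleted library the surrogate light-chain genes Igll1 and Vpreb1 stood at 2434 and 2552 CPM and Kit at 316. In those of the B220lo library they stood at 376, 236 and 5.85, and Ms4a1 at 461 against 24.3. Jchain, a plasma cell gene, stood at 2393 in the B220lo family 1 cells and had 0 UMIs in the deleted ones. Kmt2c and Kmt2d were counted at 44.5 and 26.3 in deleted family 1 cells and at 145 and 40.2 in B220lo family 1 cells. A 5′ count near the start of a transcript does not check a deletion further along the gene.

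Within the deleted library, family 1 cells were set beside cells with heavy chains of other families only. Of the 8 progenitor B genes listed, 4 were lower in family 1 cells with intervals that did not overlap and 0 were higher. Over all 19682 genes with a UMI in either group 1.72% were lower and 1.91% higher by that rule. Those shares cover genes of any level, and intervals are narrower for genes with many UMIs, so the listed genes are not directly comparable. The intervals also take no account of cells that share a chain, and 87 of the 111 family 1 cells held 4 chains. Igll1 stood at 2434 CPM against 2559, Dntt, which adds bases at junctions, at 996 against 1322, Il7r, the interleukin-7 receptor, at 330 against 428, and Kit at 316 against 380. All 4 granulocyte genes were higher in family 1 cells: Mpo stood at 1255 against 541, Prtn3 at 773 against 362, Elane at 685 against 471 and Ctsg at 407 against 159. Of 22 genes of V(D)J recombination and the heavy-chain locus, 0 were higher and 3 lower, with 19 overlapping. Of the 7 later B genes 3 were higher, Ms4a1 at 24.3 against 0.911, Igkc at 9.10 against 0.175 and Cd74 at 312 against 13.6. These levels came mostly from the 7 cells with a light chain, which held 21 of 24 UMIs of Ms4a1, 7 of 9 of Igkc and 303 of 308 of Cd74. Among cells without a light chain Cd74 stood at 5.16 (1.67 to 12.0) in family 1 and 3.80 (3.11 to 4.58) in other families. There Ms4a1 stood at 3.10 on 3 UMIs against 0.0352 on 1, and Igkc had 2 UMIs in each group. Of the 6 B-lineage genes 1 was lower, Ebf1 at 1734 against 1921, and of the 4 plasma cell genes 0 differed by this rule. Of the 4 T or NK genes 1 was higher, Nkg7 at 73.8 against 22.9, and Cd3e and Cd3g were at 0 UMIs in family 1 cells.

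The granulocyte transcripts differed between the 4 chains found in several cells. Their sum stood at 6232 CPM (5830 to 6654) in the 17 cells with the IGHV1-47 chain, at 4401 (4126 to 4690) in the 21 with the IGHV1-11 chain and at 2643 (2495 to 2797) in the 45 with the IGHV1-2 chain. In the 4 cells with the IGHV1-18 chain it stood at 152 (55.9 to 331), and in the 16 cells with a chain of their own and no light chain at 171 (104 to 264). Cells with chains of other families stood at 1533 (1519 to 1547), so the higher family 1 level was that of the 3 largest groups of cells. The progenitor B sum also differed between these groups. It stood at 5856 CPM (5538 to 6187) in the IGHV1-11 cells, 6141 (5392 to 6966) in the IGHV1-18 cells, 7227 (6794 to 7681) in the IGHV1-47 cells and 7502 (7251 to 7758) in the IGHV1-2 cells. In the 16 cells with a chain of their own it stood at 7876 (7376 to 8402), against 7724 (7691 to 7756) in cells with chains of other families, so the lower level was not shared by all family 1 cells. The B-lineage sum ran from 5696 CPM in the IGHV1-47 cells through 6303 in the cells with a chain of their own, 6581 in the IGHV1-2 and 7472 in the IGHV1-11 cells to 8400 in the IGHV1-18 cells, against 6991 in cells with chains of other families. In the B220lo library the granulocyte sum was 415 CPM in family 1 and 612 in other cells, with all 4 genes lower in family 1, where 2.05% of 20622 genes were lower and 1.60% higher by the same rule. The erythroid sum there was 269 CPM (263 to 276) in family 1 and 34.5 (31.9 to 37.3) in other cells, with 2 of 3 genes higher. Hbb-bt, a beta globin, stood at 250 against 29.8, although it had a UMI in a like share of cells, 3.41% (2.91 to 3.96) and 3.10% (2.57 to 3.69).

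The deleted cells with a family 1 chain and a light chain differed in transcripts from those without. In the 7 that had 1 heavy chain, with a median of 1935 UMIs each, Ms4a1 stood at 1094 CPM (677 to 1673) and Cd74, the invariant chain of antigen presentation, at 15790. In the 103 without a light chain, with a median of 7708 UMIs, these stood at 3.10 and 5.16. Igll1 stood at 104 (12.6 to 376) against 2480 and Vpreb1 at 156 against 2599, and Rag1 had 0 UMIs against 187 CPM. Of all 8, 6 had a UMI of Ms4a1, 7 of Cd74, 3 of Igll1 and 6 of at least 1 of the 4 Y-linked genes. Of the 4262 B220lo family 1 cells with a light chain, 2 had a Y-linked UMI. The libraries shared 0 family 1 barcodes and 0 family 1 CDR3, although 345 barcodes of any kind occurred in both.

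The matrices also counted V-gene transcripts without regard to assembled chains, and here the order of the libraries was the opposite. In the deleted library family 1 genes took 92.2% of all heavy-chain V-gene UMIs, 1283102 of 1392198. For a closer comparison, cells were taken that had UMIs of Igll1, Vpreb1 and Ebf1, an early B-lineage factor, and no light-chain contig. This rule does not match the stage of the cells, and genotype and sort still differ between the libraries. In the 13739 such cells of the deleted library family 1 genes stood at 10890 CPM (10870 to 10910), with a median of 82.0 UMIs per cell (quartiles 53.0 and 118.0). In the 1492 such cells of the B220lo library they stood at 496 (485 to 508), with a median of 1.0 per cell. V genes of other families stood at 924 and 421. Median depth was alike, at 6737 and 6692 UMIs per cell.

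In the deleted library these transcripts were nearly as high in cells whose own heavy chain was of another family. In the 3189 such cells with a heavy chain of another family only, family 1 genes stood at 10650 CPM (10610 to 10690), and in the 10451 with no heavy-chain contig at 10960. In the B220lo library the 164 cells with a chain of another family only had 70.3 (59.5 to 82.5), and the 227 with a family 1 chain had 971. All family 1 cells without a light chain were also read, whatever their progenitor transcripts. There, genes other than the cell's own V gene gave a median of 86.0 UMIs per cell in the deleted library and of 0 in the B220lo library. These cells differed in depth, with medians of 7708 and 3362 UMIs, and 102 of 103 and 347 of 974 had a UMI of Igll1. In the 8 deleted cells with a light chain the median from other V genes was 2.0, with a range of 0 to 99, at a median depth of 2153 UMIs.

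Many family 1 genes were counted in the same cell. A median of 11.0 family 1 genes had at least 2 UMIs in the deleted cells of this kind, and 97.6% of them had 3 or more such genes, which is more than the number of heavy-chain alleles in a cell. The B220lo share was 1.21%. With each cell thinned to 3000 UMIs, which left out 1436 and 313 shallower cells, the shares were 93.4% (92.9 to 93.8) and 0.933% (0.467 to 1.66). A background level was read in cells without UMIs of Cd79a, Ebf1, Igll1 or Vpreb1. Free RNA can hold these transcripts as well, so the rule favours barcodes with little free RNA. The level may thus be below that of free RNA in other barcodes. In 248 such background cells of the deleted library, with a median depth of 15111.5 UMIs, family 1 genes stood at 81.6 CPM (72.6 to 91.3). Of these cells 0 had 3 family 1 genes with at least 2 UMIs. In 1197 such cells of the B220lo library they stood at 317 (304 to 331), with 1218 of the 2268 UMIs in 1 cell, and without that cell at 147 (138 to 156), below the B220lo level of 496 but above the 70.3 of B220lo cells with a chain of another family only. Of the B220lo cells 60.3% had a UMI of a family 1 gene against 31.3% of those background cells, at median depths of 6692 and 5393 UMIs, and 45.0% against 17.5% once thinned.

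The other Kit+ libraries held few cells of this kind. In the 20 of the control Kit+ library family 1 genes stood at 30.7 CPM (11.3 to 66.8), on 6 UMIs. In the 5 of the Mll3/4SI Kit+ library they stood at 3258 (2776 to 3800), on 162 UMIs, of which the highest cell had 81 and 1 cell had 0. Counting error is only part of the uncertainty over so few cells.

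The transcripts were spread unevenly over the family. In the deleted cells of this kind Ighv1-66 (115593110 to 115593591) stood at 2160 CPM, Ighv1-75 (115833950 to 115834418) at 1406, Ighv1-23 (114764450 to 114764883) at 1234, Ighv1-76 at 1043 and Ighv1-62-3 at 994. Ighv1-75 had 1 distinct chain in that library and the other 4 had 0. Among cells with a heavy chain of another family only, the 10 genes with most UMIs held 83.0% of family 1 UMIs and had 3 distinct chains in all, and 83.0% of family 1 UMIs came from genes beyond the middle of the family. Pseudogenes gave 1.65%. Of 33 genes at 10 CPM or more in those cells, 26 had 0 chains (78.8%), a share near the 77 of 93 (82.8%) over all family 1 genes in the matrix. In the Mll3/4SI cells the leading genes were Ighv1-76, Ighv1-66, Ighv1-23 and Ighv1-75, at 644, 603, 563 and 382 CPM. In the B220lo cells Ighv1-26, the gene used most in chains, led at 41.3, and Ighv1-66 stood at 20.9.

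**Figure D5:**
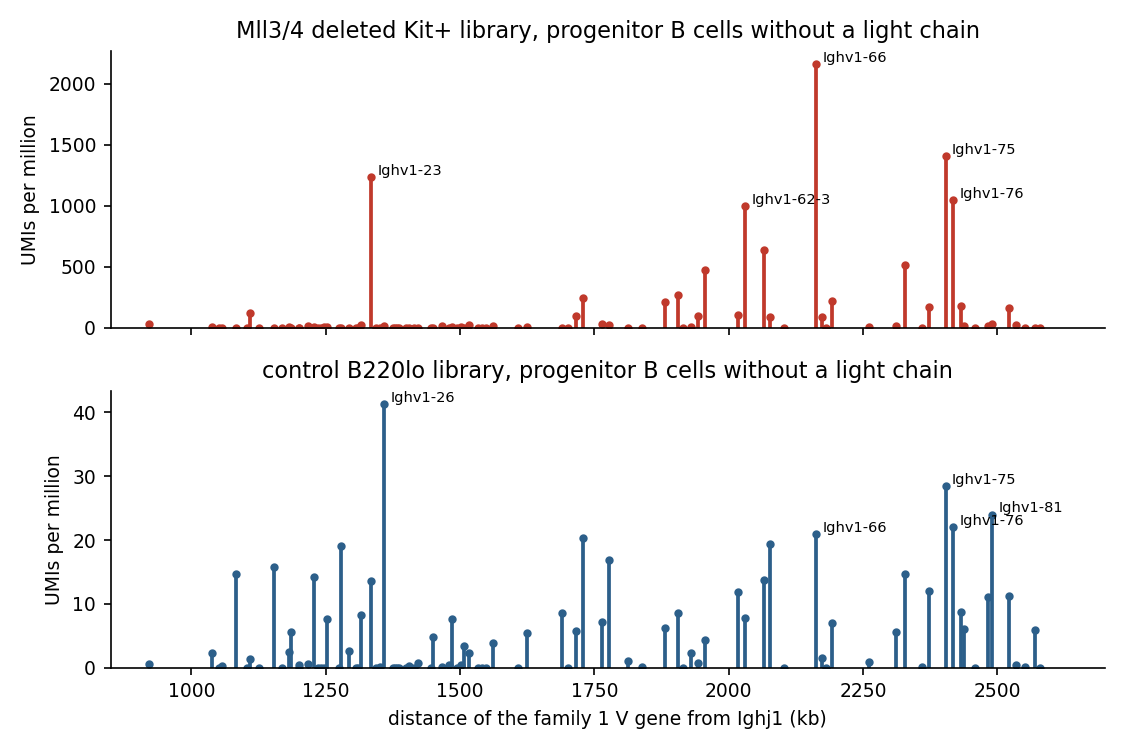
CPM (vertical axis, with a different scale in each panel) of each family 1 V gene against its distance from Ighj1 (horizontal axis, kb), in cells with UMIs of Igll1, Vpreb1 and Ebf1 and no light chain. In the deleted library Ighv1-66 reaches 2160 and most of the signal lies beyond the middle of the family, and in the B220lo library Ighv1-26 leads at 41.3.

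For a single gene in a cell, the counts do not tell an unrearranged V gene from a rearranged one that gave no productive chain. Most of the deleted cells had 3 or more genes counted, more than the number of heavy-chain alleles in a cell. The part of shared reads and of free RNA in that number was not tested. Whether the genes counted were rearranged was not tested either. Close copies within the family can share reads, so the split between single genes is less certain than the family sum. Over the 50 family 1 genes with chains in the B220lo library, log UMIs in the matrix and log contigs correlated with Pearson's r = 0.875. That is a description over genes of 1 library, which share cells and depth.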

How the data were processed

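The authors' deposited files were UMI counts per gene and cell barcode and tables of assembled receptor contigs with UMI counts, made with Cell Ranger 7.1.0 on mm10, per the submitters' processing notes. The V(D)J reference is not given in the sources used here. All deposited contigs carried the productive and high-confidence marks. The deleted and B220lo matrices held 15091 and 16861 barcodes, 130424242 and 85445426 UMIs, and 6761 and 3272 UMIs per barcode at the median. Doublets were not removed; 706 B220lo and 1 deleted barcodes had several heavy chains.

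Here, shares carry exact (Clopper-Pearson) 95% intervals and UMI sums exact Poisson intervals (Python 3.11.15, scipy 1.17.1). A CDR3 seen with family 1 and another family counts as family 1. Log2 ratios of V-gene shares had 0.5 added to each count and a minimum of 20 distinct CDR3, and a gene was called at 2-fold. The step was tested on simulated data, with a pass required only at more chains than the deleted library holds. Germline segments and positions come from GENCODE M21 (GRCm38), whose V and J ends were matched base by base from each end of CDR3. For transcripts of marker lists, barcodes had at least 1000 UMIs, 500 genes and at most 10% mitochondrial UMIs; V-gene transcripts used all deposited barcodes.

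Named were, per library, the 10 family 1 genes with most distinct CDR3 and the 5 highest and 5 lowest ratios, the 5 CDR3 in most cells, the 5 most used light-chain V genes and fixed marker lists. Members and lists were chosen with earlier results of these data known. V-gene transcripts, shared endings and the Y-linked check were added after the data were seen.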

Additional observations from a re-analysis of the deposited data

How the results depend on the processing

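Of 164 alternative values over 21 results, 140 stayed within the interval or within 1.5 times the main count and 24 moved. Of 57 comparisons of the deleted with the B220lo library under an alternative, 8 turned in direction, all of them J shares counted by cells or contigs. No paired analysis was possible because each group has 1 library. Leaving out a replicate was not possible for the same reason. Counting cells gave 8.11% IGHJ1, 43.2% IGHJ2, 44.1% IGHJ3 and 4.50% IGHJ4 in deleted family 1 chains, as did contigs, against 18.8, 41.4, 25.8 and 14.0% by cells in the B220lo library, since large groups of cells then count more. By distinct chains the deleted library was higher for IGHJ1 and IGHJ4 and lower for IGHJ2 and IGHJ3. Without light chains the B220lo chains had 28.2% IGHJ3 and 12.6% IGHJ4, and the B220lo family 1 share was 53.9%, against 57.5% by cells. Family 1 genes at least 2-fold higher numbered 2 by cells, 2 by contigs, 1 with a minimum of 10 chains and 2 with no minimum, against 0. Genes of other families numbered 24 higher with no minimum, against 15, and 22 and 23 lower by cells and contigs, against 12, with 11 higher by either count. Light-chain pairing was 28.6% by distinct chains in the deleted library, and 79.1% with exactly 1 heavy chain and 75.7% with at least 2 UMIs per contig in the B220lo library. Family 1 V-gene transcripts were 10960 CPM in deleted cells without a heavy chain and 10650 with one of another family only, and 410 and 70.3 in the B220lo library. The 28 distinct deleted chains limit every comparison within the family there.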
